A study of Mus musculus with 12 samples.

Results

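Annexin genes were followed in left-ventricular mouse cardiomyocytes, isolated 1 week after pressure overload began. The family was taken as 9 genes, Anxa1 to Anxa8 and Anxa11, with every probe that the platform annotation assigns to 1 of these symbols. This gave 20 of the 45281 probes and 9 of the 19057 named genes on the array. The members were chosen by their symbols with their intensities and detection p-values in the 4 groups already known. Their levels, differences and limma calls, and how often a call recurs under other settings, are therefore a description and no independent test. The groups are male C57Bl6/J mice infected as 10-day-old pups with AAV9, an adeno-associated virus that enters heart muscle. It encoded a scrambled hairpin RNA (shctrl) or a single hairpin against Uhrf1, named sh-Uhrf1 #1 (shUhrf1). Surgery followed 2 months later, either transverse aortic constriction (TAC), which makes the left ventricle pump against a raised pressure, or a sham operation. The labels give an age of 8 weeks for every array. Each of the groups sham shctrl, TAC shctrl, sham shUhrf1 and TAC shUhrf1 holds 3 Illumina bead arrays, and all 12 carried AAV9. The labels speak of triplicates and name no animals, so p-values here rest on a spread between arrays that may be technical.

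Annexins bind acidic phospholipids such as phosphatidylserine when calcium rises, by a core of repeated domains, and differ in the N-terminal tail that binds partner proteins. Anxa2 pairs with S100a10, and Anxa1 with S100a11, to bridge membranes, organise the cortical actin below them and help to seal torn plasma membrane. Anxa1 is also secreted and acts on formyl peptide receptors to dampen inflammation, and Anxa5 covers phosphatidylserine on dying cells. In the heart Anxa6 is abundant in cardiomyocytes, whereas Anxa1, Anxa2, Anxa3 and Anxa5 are also found in the vessel wall, fibroblasts and white blood cells. UHRF1 brings the maintenance methyltransferase to replicated DNA, where it recognises half-methylated CpG sites. DNA methylation itself was not measured on these arrays.

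Promoters of the members that rose with TAC are shown because these genes share a direction and differ in their start regions. RefSeq windows on GRCm38.p6, from 250 bases before to 50 bases after the start of a gene, were matched for 7 of the 9 members in 9 windows. Anxa3 and Anxa6 were not matched. Capitals mark matches, on either strand, to the letters TGANTCA of an AP-1 element, TATAAA of a TATA box, GGGCGG of a GC box or CATTCC of an MCAT element, a site first described in muscle genes. No 2 of these motifs overlapped in the printed windows. The Anxa2 window lies at chr9:69453433-69453732 on the plus strand. The Anxa1 window is chr19:20390622-20390921 on the minus strand, and that of Anxa5 is chr3:36475838-36476137 on the minus strand. Anxa4 has 2 windows, of which the one with more CpG sites, at chr6:86793535-86793834 on the minus strand, is printed. S100a11, a partner gene described further on, is shown beside them, with its window at chr3:93520246-93520545 on the plus strand. The partner genes S100a6 and S100a10 were looked up as well. The S100a6 window held none of these motifs and is not printed, and S100a10 was not matched.
Anxa2: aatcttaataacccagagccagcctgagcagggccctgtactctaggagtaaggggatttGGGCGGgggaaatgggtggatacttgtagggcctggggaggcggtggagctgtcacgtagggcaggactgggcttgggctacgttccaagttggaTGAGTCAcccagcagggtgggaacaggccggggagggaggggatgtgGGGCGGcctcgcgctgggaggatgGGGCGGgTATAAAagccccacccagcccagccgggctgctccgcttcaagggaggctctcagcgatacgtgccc
Anxa1: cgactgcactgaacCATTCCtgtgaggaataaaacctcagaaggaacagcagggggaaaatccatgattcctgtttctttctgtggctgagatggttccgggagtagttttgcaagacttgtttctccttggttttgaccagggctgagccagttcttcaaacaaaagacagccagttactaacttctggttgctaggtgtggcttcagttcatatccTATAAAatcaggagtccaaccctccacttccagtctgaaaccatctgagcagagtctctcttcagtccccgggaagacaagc
Anxa5: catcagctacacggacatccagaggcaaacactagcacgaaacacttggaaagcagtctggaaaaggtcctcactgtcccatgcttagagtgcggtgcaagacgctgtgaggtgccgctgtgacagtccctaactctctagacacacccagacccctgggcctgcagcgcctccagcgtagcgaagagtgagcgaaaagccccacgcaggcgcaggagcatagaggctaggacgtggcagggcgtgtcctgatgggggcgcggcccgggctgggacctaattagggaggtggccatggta
Anxa4: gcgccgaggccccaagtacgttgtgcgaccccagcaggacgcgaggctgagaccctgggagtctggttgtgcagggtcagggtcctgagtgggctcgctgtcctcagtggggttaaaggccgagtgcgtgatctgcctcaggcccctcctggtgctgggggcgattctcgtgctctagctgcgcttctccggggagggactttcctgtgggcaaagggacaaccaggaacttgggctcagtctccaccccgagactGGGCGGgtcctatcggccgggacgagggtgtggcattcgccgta
S100a11: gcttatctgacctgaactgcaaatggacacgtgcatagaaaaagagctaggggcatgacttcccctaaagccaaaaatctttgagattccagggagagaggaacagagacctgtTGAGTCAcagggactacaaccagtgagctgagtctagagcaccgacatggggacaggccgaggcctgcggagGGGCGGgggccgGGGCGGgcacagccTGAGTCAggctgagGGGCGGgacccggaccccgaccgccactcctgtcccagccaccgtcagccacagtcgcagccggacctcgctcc

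The Anxa2 window held 1 match to the AP-1 letters, starting 95 bases upstream of the start site, a TATA box 17 bases upstream and 3 GC boxes. The S100a11 window held 2 matches to the AP-1 letters, 136 and 38 bases upstream, and 3 GC boxes. No other printed window held the AP-1 letters. A TATA box lay 32 bases upstream of the Anxa1 start and an MCAT match 236 bases upstream, while the printed Anxa4 window had 1 GC box, 6 bases downstream, and the Anxa5 window had none of the 4. For comparison 32851 promoter windows of the same length were read, with 1 chromosome left out. Among them AP-1 letters occurred in 7.81%, the TATA box in 13.6%, the GC box in 35.7% and the MCAT letters in 14.7%. CpG sites numbered 13 in the Anxa2 window, 3 in Anxa1, 16 in Anxa5, 20 in the printed Anxa4 window and 3 in its other window. They numbered 25 in Anxa11, 4 and 19 in the 2 Anxa7 windows and 5 in Anxa8. The median over the 32851 windows was 7. These matches are a description of letters, and no binding was measured here.

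Between 12309 and 14908 probes were detected per array (detection p under 0.01), with the TAC groups at 13375 to 14544 in shctrl and 14440 to 14908 in shUhrf1, and the sham groups at 12309 to 12979 in shctrl and 13113 to 13792 in shUhrf1. Uhrf1, the target of the hairpin, was detected on no sham array, on all 3 TAC shctrl arrays (log2 intensity 6.14, 7.11 and 6.89) and on 2 of 3 TAC shUhrf1 arrays (4.68, 5.34 and 6.06). Among the TAC arrays its level was 2.56-fold lower with the Uhrf1 hairpin (limma, adjusted p = 0.0355), a call that was lost in 5 of 12 fits without 1 array. All 7 cardiomyocyte markers with a probe were detected on every array, with a summed linear intensity between 119600 and 130700. Quantile normalization gives every array the same set of values, so this sum cannot show whether the share of cardiomyocytes was steady. Markers of other cells were present too, and array 2 of sham shUhrf1 stood apart, with the lowest sums of all 12 arrays for fibroblast (1655), endothelial (1010) and macrophage markers (1071). Some annexin results that rest on that array are also given without it, and where this is not stated the values include it. None of the 4 lymphocyte markers with a probe was detected on any array.

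Of the 20 annexin probes 13 were kept, being detected on at least 3 of the 12 arrays, and 6 were detected on no array. The kept probes stand for 8 members. Anxa2, Anxa3, Anxa5, Anxa6 and Anxa11 were detected on all 12 arrays, Anxa4 on 11, Anxa7 on 6 and Anxa1 on 4. Anxa8, best known from epithelia, was detected on none with either of its 2 probes, whose log2 intensity lay between 4.19 and 4.71. Values below are background-corrected, quantile-normalized log2 intensities of the brightest kept probe of a gene. Levels are compared between groups within a gene and not between genes, because probes differ in brightness.

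**Figure D1:**
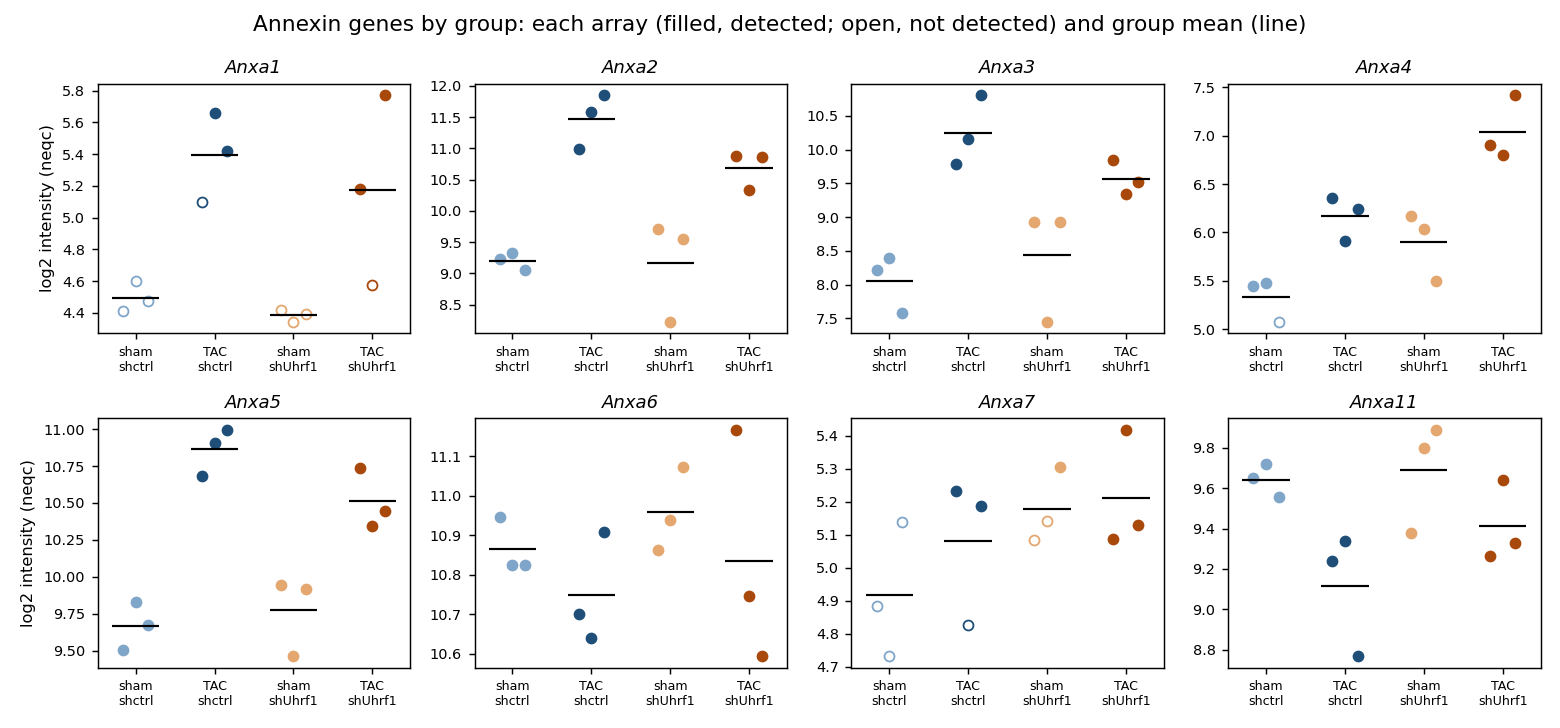
Log2 intensity (y axis, a separate scale for each gene) of 8 annexin genes on the 3 arrays of each of the 4 groups, with filled points for detected and open points for not detected arrays and a line at the group mean. Anxa2, Anxa3 and Anxa5 were higher on every TAC array than on any sham array of the same hairpin, Anxa4 was highest in TAC shUhrf1, and Anxa6 overlapped in all groups.

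After TAC in shctrl cells, 5 of the 8 measured members rose (Anxa1, Anxa2, Anxa3, Anxa4 and Anxa5) and none fell by their brightest probe, at a Benjamini-Hochberg adjusted p under 0.05 over all probes in limma. Among all 8746 genes tested, 11.4% rose and 7.47% fell in that comparison. The members' median log2 difference was 0.87, from -0.53 to 2.27, against -0.04 over all genes. All 3 TAC arrays lay above all 3 sham arrays for 5 members and below them for 1, against 19.2% and 19.3% of all genes. Since the members were chosen with these values known, nothing is read from the counts. Anxa1 in particular was detected on TAC arrays alone and passed the filter only through them, and with no filter it was not called. Anxa1 and Anxa4 were called in 15 of 21 alternative settings each, and without sham shctrl array 3 or TAC shctrl array 3 the count was 3. Anxa2, Anxa3 and Anxa5 were called in all 22.

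Anxa2, the actin- and S100a10-binding member, read 9.22, 9.33 and 9.05 on the sham shctrl arrays and 10.99, 11.58 and 11.85 on the TAC shctrl arrays. In shUhrf1 cells it read 9.71, 8.23 and 9.56 after sham surgery and 10.88, 10.33 and 10.86 after TAC. Every TAC array thus lay above every sham array, and all 3 TAC shctrl arrays lay above the 3 TAC shUhrf1 arrays. The TAC difference was 2.27 ± 0.33 (log2, SE), or 4.83-fold, in shctrl and 1.53 ± 0.33, or 2.88-fold, in shUhrf1. Sham shUhrf1 array 2 was 0.94 below its group mean, and without it the difference in shUhrf1 was 1.06 and no longer passed. In order of group means Anxa2 ran from sham shUhrf1 (9.16 ± 0.82, SD, n = 3) and sham shctrl (9.20 ± 0.14), which overlapped, to TAC shUhrf1 (10.69 ± 0.31) and TAC shctrl (11.47 ± 0.44), which did not.

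Anxa3, which is abundant in neutrophils and is also made by endothelial cells, read 8.21, 8.39 and 7.57 in sham shctrl and 9.79, 10.16 and 10.81 in TAC shctrl. In shUhrf1 the sham arrays read 8.93, 7.45 and 8.92 and the TAC arrays 9.85, 9.34 and 9.52. The groups did not overlap between sham and TAC under either hairpin, whereas the TAC groups overlapped with each other. TAC shifted it by 2.20 ± 0.37 (4.58-fold) in shctrl and by 1.14 ± 0.37 (2.20-fold, not called) in shUhrf1. Without sham shUhrf1 array 2 the latter was 0.65. Its other probe, also detected on all 12 arrays, gave 2.10 ± 0.43 and 1.21 ± 0.43, so both probes ran the same way.

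Anxa5, the phosphatidylserine-binding member widely used as a probe for dying cells, read 9.51, 9.83 and 9.67 in sham shctrl and 10.69, 10.90 and 10.9953 in TAC shctrl. The shUhrf1 arrays read 9.95, 9.46 and 9.92 after sham surgery and 10.74, 10.35 and 10.45 after TAC. Both TAC groups lay wholly above their sham groups and overlapped with each other. The TAC difference was 1.19 ± 0.17 (2.28-fold) in shctrl and 0.73 ± 0.17 (1.66-fold) in shUhrf1. The shUhrf1 call was lost without sham shUhrf1 array 2, where the difference was 0.58.

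Anxa4, which is known mainly from epithelia and regulates ion channels and membrane order, departed from these 3. It read 5.45, 5.48 and 5.08 in sham shctrl, 6.36, 5.91 and 6.24 in TAC shctrl, 6.17, 6.03 and 5.49 in sham shUhrf1 and 6.90, 6.80 and 7.42 in TAC shUhrf1. It was thus highest in TAC shUhrf1, where all 3 arrays lay above all other arrays. It rose with TAC by 0.84 ± 0.22 (1.79-fold) in shctrl and by 1.14 ± 0.22 (2.21-fold) in shUhrf1. Among the members it alone was higher in shUhrf1 than in shctrl in both surgeries without overlap. Its second kept probe was higher after TAC too, by 0.55 ± 0.17 in shctrl (called) and 0.48 ± 0.17 in shUhrf1 (not called), but between hairpins after TAC it differed by only 0.23 ± 0.17, with overlapping arrays.

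Anxa1, the anti-inflammatory member that signals through formyl peptide receptors, was not detected on any of the 6 sham arrays, whose values lay between 4.34 and 4.60. It was detected on 2 of 3 arrays in each TAC group, with log2 intensities of 5.10, 5.66 and 5.42 in shctrl and 5.18, 4.57 and 5.77 in shUhrf1. The 2 TAC groups overlapped. Because sham cells were below background, the fold in shctrl is only bounded, at least 1.02-fold higher than the lowest detected signal. No bound above 1 could be given in shUhrf1, where the fitted difference of 0.79 ± 0.24 was not called.

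Anxa11, a binder of RNA granules and of the calcium-binding protein S100a6, was the member that ran the other way in shctrl. Its brighter probe read 9.65, 9.72 and 9.56 in sham and 9.24, 9.34 and 8.77 in TAC, without overlap, a difference of -0.53 ± 0.18 that was not called, though it passed in 3 of 22 alternative settings. In shUhrf1 it read 9.38, 9.80 and 9.89 after sham surgery and 9.27, 9.64 and 9.33 after TAC, and the groups overlapped. A dimmer probe was detected on all 3 sham shctrl arrays and on no TAC shctrl array and passed as lower, by at least 1.41-fold. That dimmer probe gave 0.21 ± 0.18 in shUhrf1, so the probes agree in shctrl and differ in sign in shUhrf1, where neither was called.

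Anxa6, the largest annexin and a modulator of calcium handling in heart muscle, differed little between groups. Its 12 arrays lay between 10.59 and 11.17, and the TAC difference was -0.12 ± 0.16 in shctrl and -0.12 ± 0.16 in shUhrf1. Anxa7, a calcium-dependent membrane-fusion protein, was close to background, between 4.73 and 5.42, and overlapped in all comparisons. No TAC call was made for either gene in any of the alternative settings. Their second kept probes were dim, and after TAC in shctrl that of Anxa6 differed by 0.14 ± 0.20 and that of Anxa7 by 0.50 ± 0.20, neither of them called.

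**Figure D2:**
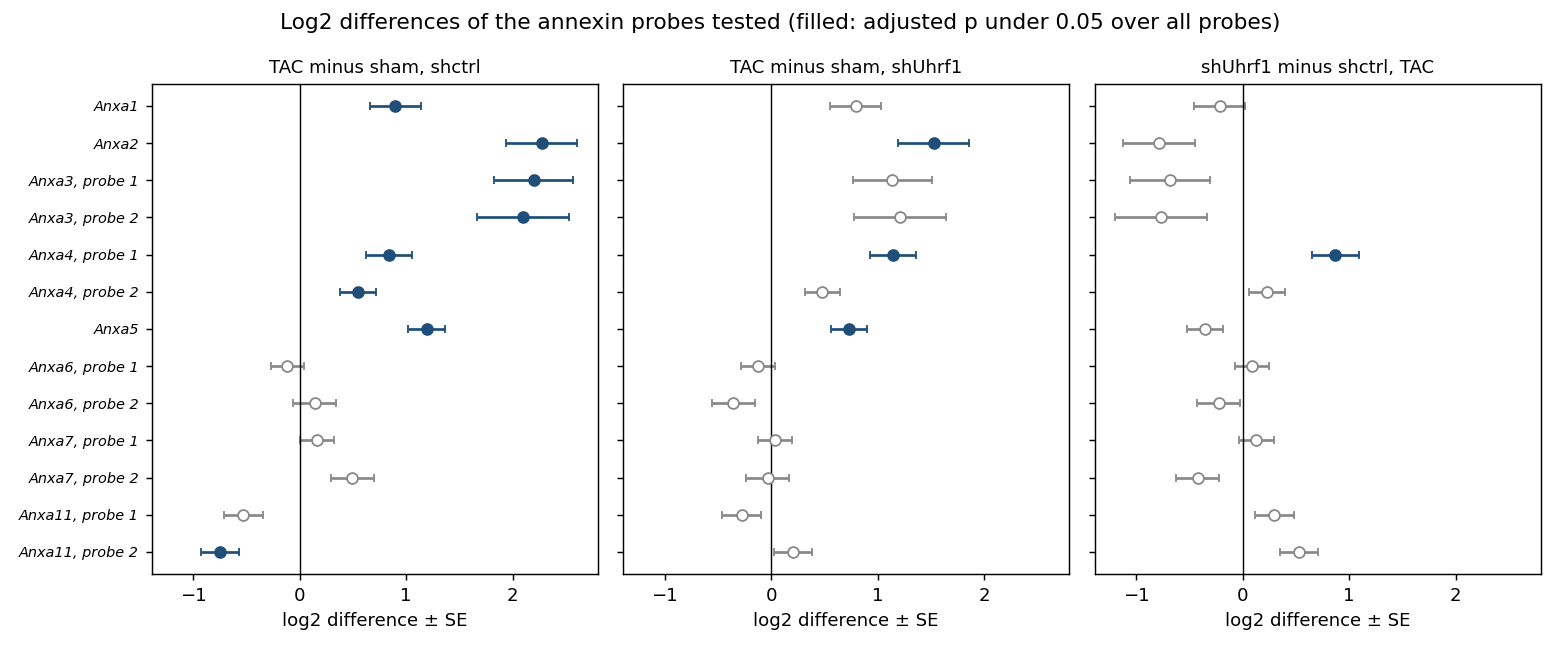
Log2 differences ± SE of the 13 annexin probes tested, in TAC against sham in shctrl (left), TAC against sham in shUhrf1 (middle) and shUhrf1 against shctrl after TAC (right), with filled points at an adjusted p under 0.05 over all probes. In shctrl the differences run from 2.27 for Anxa2 to -0.75 for the dimmer Anxa11 probe, and in the right panel Anxa4 lies at 0.87 while Anxa2 and both Anxa3 probes lie below 0.

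In shUhrf1 cells 3 of the 8 measured members rose with TAC (Anxa2, Anxa4 and Anxa5) and none fell, beside 3.96% of all genes that rose and 1.59% that fell. Without sham shUhrf1 array 2 these shares were 1.17% and 0.172%. The members' median log2 difference was 0.76, against 0.01 over all genes. For 5 members all TAC arrays lay above all sham arrays, against 15.6% of all genes. Of these 5, Anxa1 was detected on 0 sham shUhrf1 arrays and on 2 of 3 TAC shUhrf1 arrays, so most of its values lie below background. Nothing is read from these counts. The count was 1 without sham shUhrf1 array 2 or TAC shUhrf1 array 1, and 0 without TAC shUhrf1 array 3. Anxa4 was called in 20 of 21 alternative settings, Anxa2 in 17 of 22 and Anxa5 in 16 of 22.

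Between the hairpins after sham surgery none of the 8 was called by limma, beside 0.0457% of all genes. An unadjusted p under 0.05 was found for 1 member and for 1154 of all 8746 genes. The median difference was 0.10, and 0.27 without sham shUhrf1 array 2. After TAC, 1 member, Anxa4, was called higher in shUhrf1, beside 1.53% of all genes called higher and 1.36% called lower. Its difference was 0.87 ± 0.22, or 1.83-fold. That call was kept in 2 of 12 fits without 1 array (without sham shUhrf1 array 2 or 3) and lost in the other 10, while the difference stayed between 0.68 and 0.99. It was also lost with no filter, with the replicate numbers as a block and with only the 2 groups compared. In all, the call passed in 8 of 21 alternative settings. Anxa2 (-0.78 ± 0.33), Anxa3 (-0.68 ± 0.37) and Anxa5 (-0.35 ± 0.17) had negative differences that were not called. The members' median was -0.06, and its sign turned with scaling by the array median, to 0.11.

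The difference between the TAC responses, shUhrf1 minus shctrl, was called for 0 of the 8 members and for 0% of all genes in limma. By their brightest probes no member had an unadjusted p under 0.05, beside 866 of all 8746 genes. The dimmer Anxa11 probe had the largest departure from 0 relative to its error among the annexin probes, 0.96 ± 0.25, and was not called. The fitted values were -1.06 ± 0.53 for Anxa3, -0.75 ± 0.47 for Anxa2, -0.46 ± 0.24 for Anxa5 and 0.31 ± 0.31 for Anxa4. A TAC response that passed in shctrl and not in shUhrf1, as for Anxa3, is therefore not shown to differ between the hairpins. Without sham shUhrf1 array 2 the values for Anxa3 and Anxa2 were -1.55 and -1.22, and neither was called, while over all genes 4 were called higher and 98 lower. Without TAC shctrl array 1, 29 genes were called and no member.

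Markers of other heart cells ran alongside these values. In shctrl all 8 measured fibroblast markers rose with TAC. The list summed to 2059 to 3484 on the sham arrays and 7729 to 10430 on the TAC arrays. Of its 10 genes with a probe, 3 to 4 were detected per sham shctrl array and 8 per TAC shctrl array. Col1a1, Col1a2, Col3a1 and Tcf21 were detected on 7 arrays each, while Postn (2 arrays) and Ddr2 (0) were not tested. Such genes can pass the filter through the arrays where they are high, so the count of 8 is not independent of the filter. Endothelial markers rose for 7 of 9 (sums 1487 to 1893, then 3363 to 5917) and macrophage markers for 3 of 8 (2136 to 2890, then 4219 to 5521), counts that were 8 and 6 without sham shUhrf1 array 2, which enters the shared estimate of spread. In shUhrf1 5 of 8 fibroblast, 1 of 9 endothelial and 3 of 8 macrophage markers rose with TAC, and without sham shUhrf1 array 2 these counts were 4, 0 and 3. After TAC all 9 endothelial markers were lower in shUhrf1 than in shctrl, 3 of them called (7 without sham shUhrf1 array 2), and their sums were 1637 to 2276 against 3363 to 5917. Without that array the difference between the TAC responses was called lower for 5 of the 9, beside 1.12% of all genes. Over all genes 11.4% rose with TAC in shctrl, 3.96% rose in shUhrf1 and 1.36% were lower in shUhrf1 after TAC. Without sham shUhrf1 array 2 these shares were 11.9%, 1.17% and 2.6%. No fibroblast, macrophage or smooth muscle and pericyte marker was called between the hairpins after TAC. Their median log2 differences were -0.34, 0.08 and -0.52. Without sham shUhrf1 array 2, 1 smooth muscle and pericyte marker was called lower. The means of Anxa2, Anxa3 and Anxa5 were lower in TAC shUhrf1, none of them called and the arrays of Anxa3 and Anxa5 overlapping. That of Anxa4 was higher. Neutrophil markers summed to between 99.5 and 118 in sham shctrl, and to 100.2, 633 and 95.4 on the TAC shctrl arrays. In shUhrf1 they summed to between 96.3 and 119.5 after sham surgery and between 164.6 and 346 after TAC, without overlap, and neither of the 2 tested genes was called with TAC under either hairpin. Cardiomyocyte marker sums overlapped between shctrl sham (121800 to 127500) and TAC (122000 to 127600). In shUhrf1 they were lower after TAC, 119600 to 127400 against 130600 to 130700, with no marker of the 7 called. In RNA from many cells, more cells of a type and more RNA per cell cannot be told apart, and the part of these cell types in the annexin differences was not tested.

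**Figure D3:**
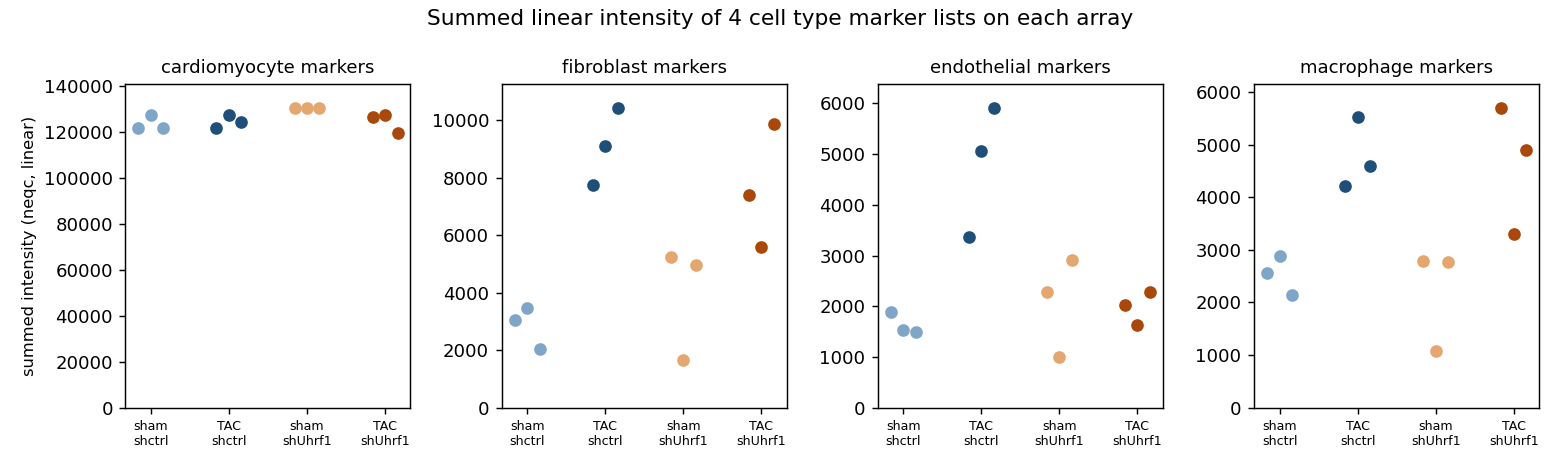
Summed linear intensity (y axis, linear scale from 0) of the cardiomyocyte, fibroblast, endothelial and macrophage marker lists on each of the 12 arrays, by group. Intensities are quantile-normalized, which limits how far sums of bright probes can move. Cardiomyocyte sums lie between 119600 and 130700, endothelial sums are highest on the 3 TAC shctrl arrays, and sham shUhrf1 array 2 is lowest for the other 3 lists.

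Levels of the genes most like an annexin over the 12 arrays describe the same pattern and share its samples, so no test is attached. For Anxa2 these were Emp1 (Pearson r = 0.996), Nav1 (0.992) and the collagen gene Col6a1 (0.990). Anxa3 ran most like Mxra8 (0.984), Igfbp7 (0.980) and Lum (0.980), which encodes the matrix proteoglycan lumican. Nearest to Anxa5 were Col4a1 (0.979), a basement-membrane collagen, Rras (0.979) and Emp1 (0.979). Anxa6 was closest to Lamb2 (0.962), a laminin chain, Golgb1 (0.887) and Il6st (0.874), and Anxa11 to Ldhd (0.926), Prpf4 (0.920) and Paqr9 (0.920).

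Genes that work with annexins were tested in limma as well. The family was not chosen by them, but their lists were drawn up with earlier results of these data known. Their p-values here and below are therefore no independent support for the family. Of 44 such genes 30 were measured, and 8 rose and 1 fell with TAC in shctrl, with a median log2 difference of 0.18 against -0.04 over all genes, of which 11.4% rose and 7.47% fell. In shUhrf1 3 of 30 rose and none fell, beside 3.96% and 1.59% of all genes. Without sham shUhrf1 array 2, 0 were called, beside 1.17% and 0.172% of all genes. In limma none was called between the hairpins after sham surgery, between them after TAC or in the difference between the TAC responses. In that order 4, 2 and 3 of the 30 had an unadjusted p under 0.05, beside 1154, 1692 and 866 of all 8746 genes. Without sham shUhrf1 array 2, 2 of the 30 were called between the hairpins after TAC, beside 1.8% of all genes called higher and 2.6% called lower.

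The S100 proteins are small calcium sensors that bind annexin tails, and 3 of their 6 measured list members rose in shctrl. S100a11, the partner of Anxa1 and Anxa2, read 8.36, 8.15 and 7.95 in sham shctrl and 9.87, 10.57 and 10.87 in TAC shctrl. It read 8.45, 7.23 and 8.87 in sham shUhrf1 and 10.14, 9.45 and 9.89 in TAC shUhrf1. Every TAC array lay above every sham array. The difference was 2.29 ± 0.36 (4.88-fold, limma adjusted p = 0.00161) in shctrl and 1.64 ± 0.36 (3.12-fold, adjusted p = 0.0232) in shUhrf1.

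S100a10, which forms the tetramer with Anxa2, read 6.44, 6.62 and 5.97 in sham shctrl and 6.97, 7.75 and 8.24 in TAC shctrl. Its shUhrf1 arrays read 6.56, 5.79 and 6.63 after sham surgery and 6.95, 6.77 and 7.30 after TAC, so that sham and TAC did not overlap under either hairpin. It rose by 1.31 ± 0.31 (2.48-fold, limma adjusted p = 0.0124) in shctrl, while the difference in shUhrf1 of 0.68 ± 0.31 did not pass (adjusted p = 0.217). The shctrl call was lost without sham shctrl array 3 (1.12, adjusted p = 0.0553) or TAC shctrl array 3 (1.01, adjusted p = 0.0591). S100a6, a partner of Anxa2 and Anxa11, rose by 1.56 ± 0.31 (2.95-fold, adjusted p = 0.00500) in shctrl and by 1.17 ± 0.31 (2.26-fold, adjusted p = 0.0452) in shUhrf1. Without sham shUhrf1 array 2 the values in shUhrf1 were 0.79 for S100a6 (adjusted p = 0.146) and 1.16 for S100a11 (adjusted p = 0.0667), and neither passed. The S100a11 call in shUhrf1 was also lost without TAC shUhrf1 array 1 (limma adjusted p = 0.0804) or 3 (adjusted p = 0.0932). That of S100a6 was lost in 8 of 12 fits without 1 array, including each TAC shUhrf1 array in turn, with an adjusted p of up to 0.149.

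Of the list of formyl peptide receptors and phospholipase A2 1 gene was measured and passed under both hairpins, and of the plasminogen list 1 of 2 measured genes passed in shctrl. Fpr2, the formyl peptide receptor for Anxa1, was not detected in sham cells, and its fitted rise was 0.62 ± 0.17 in shctrl (limma adjusted p = 0.0251) and 0.69 ± 0.17 in shUhrf1 (adjusted p = 0.0361), too close to background for a bound on the fold. It was detected on 3 arrays, all after TAC, so it passed the filter only through the groups where it is high. With no filter the adjusted p was 0.0487 in shctrl and 0.0757 in shUhrf1. The call was lost in 4 of 12 fits without 1 array in shctrl and in 6 of 12 in shUhrf1. Plat encodes tissue plasminogen activator, which binds the Anxa2 complex on the cell surface. It read 5.53, 5.71 and 5.46 in sham shctrl and 6.78, 7.52 and 7.88 in TAC shctrl, a rise of 1.83 ± 0.33 (3.55-fold, adjusted p = 0.00314). In shUhrf1 the Plat difference was 0.59 ± 0.33 (adjusted p = 0.316), with overlapping groups, and the difference between the TAC responses, -1.23 ± 0.46, did not pass (adjusted p = 0.423).

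Of 11 listed genes that expose or recognise phosphatidylserine, the ligand of Anxa5, 5 were measured. In shctrl 4 of these passed, 3 higher and 1 lower, beside 11.4% and 7.47% of all genes. None passed in shUhrf1, beside 3.96% and 1.59% of all genes. There 2 of the 5 had an unadjusted p under 0.05 in limma, Axl at 1.07 ± 0.41 and Mfge8 at 0.36 ± 0.13, beside 1969 of all 8746 genes. In shctrl Axl, a receptor for phosphatidylserine bridged by Gas6, rose by 1.84 ± 0.41 (3.59-fold, limma adjusted p = 0.00964). Mertk, a related receptor, was not detected in sham shctrl cells and rose at least 1.22-fold (adjusted p = 0.00908, and 0.0310 with no filter). Mfge8, a secreted bridge between phosphatidylserine and integrins, rose by 0.77 ± 0.13 (1.70-fold, adjusted p = 0.00269). Stab1, a scavenger receptor of macrophages and sinusoidal endothelium, fell by 0.57 (log2, with an SE of 0.16 and an adjusted p of 0.0298), but the mean of its kept probes was higher by 0.22. The Stab1 call was also lost without any 1 of sham shctrl arrays 1 and 3 or TAC shctrl arrays 2 and 3, with values from -0.60 to -0.50.

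No call was made among the 10 measured genes of membrane repair and calcium-dependent binding in shctrl, which ranged from -0.31 to 0.46. Of them 2 had an unadjusted p under 0.05 in limma, beside 2955 of all 8746 genes. The 6 vesicle-traffic partners of Anxa2 and Anxa6 ranged from -0.17 to 0.48, with none called and 1 under an unadjusted p of 0.05. In shUhrf1 these lists also held no call, with 2 and 0 under that limit, beside 1969 of all 8746 genes.

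**Figure D4:**
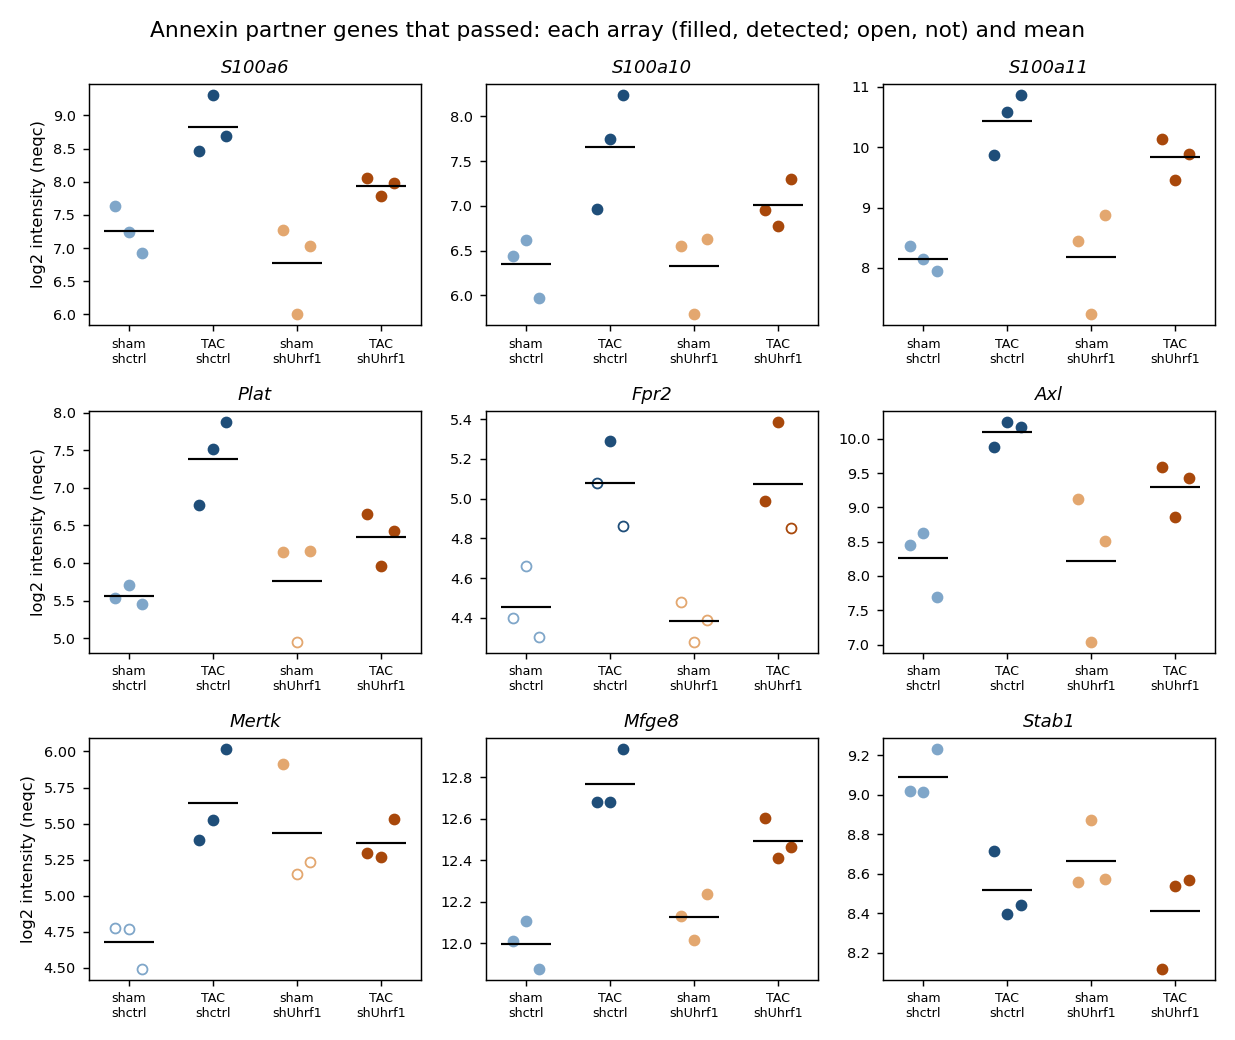
Log2 intensity (y axis, a separate scale for each gene) of the 9 partner genes that passed in at least 1 comparison, on the 3 arrays of each group, with filled points for detected and open points for not detected arrays and a line at the mean. S100a6, S100a10 and S100a11 were higher on every TAC array than on every sham array of the same hairpin, and sham shUhrf1 array 2 was the lowest array of all for the 3 genes.

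The family's other genes with a probe were Anxa9, Anxa10 and Anxa13. Anxa9 and Anxa10 were detected on no array. Anxa13, known from intestine and kidney, was detected on 2 sham shctrl arrays and 1 TAC shUhrf1 array. It fell at least 1.28-fold with TAC in shctrl (limma adjusted p = 0.0458), close to background, and the call was lost in 10 of 12 fits without 1 array, with an adjusted p of up to 0.161, and with no filter (adjusted p = 0.0964).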

How the data were processed

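RNA of isolated cardiomyocytes was biotin-labelled and hybridised to Illumina mouse arrays, per the labels' protocols. The deposited table gives, per the file headers, a linear intensity and a detection p-value for each probe and array. The authors' value table, used as an alternative, holds log2 values. The submitters' processing notes name lumi without a version, and its settings were not given in the sources used here. Groups follow the sample titles.

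Of 45281 probes 34885 had 1 symbol in the platform annotation, 18 had several and 10378 are unnamed here. Intensities were corrected and quantile-normalized with limma's neqc (offset 16). Probes with detection p under 0.01 on at least 3 of 12 arrays were kept, 15118 probes and 8746 named genes, and a gene was read from its brightest kept probe. Linear models with a mean for each group were fitted across all 12 arrays (limma 3.58.1, R 4.3.3), with eBayes moderation and Benjamini-Hochberg adjustment over all probes, with a threshold of 0.05, for 5 comparisons. The code of the fit was run on simulated arrays with independent normal noise. Such arrays hold no outlying array or technical replicates, so this does not test the calls made here. With 3 against 3 arrays an exact two-sided permutation test cannot go below 0.1, so none is given; the number of arrays limits the precision. "At least N-fold" sets the mean of the detected group against a floor, on each array the gene's own signal or the dimmest detected signal if that is higher.

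The members and lists were chosen with earlier results of these data known. Named are all members and other annexins, Uhrf1, partner genes that passed in at least 1 comparison, and the 3 genes most correlated with each member detected on all arrays. Alternatives changed the background correction, scaling, offset, filter, probe per gene, groups in the fit, block and arrays. Marker lists of neutrophils, smooth muscle and pericytes, and mesothelium had 2, 4 and 1 tested genes, of which 0, 2 and 0 passed with TAC in shctrl.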

Additional observations from a re-analysis of the deposited data

Results flagged for a closer look

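The second Anxa2 probe lay outside the comparisons because it was detected on only 2 arrays, fewer than the 3 required. Both were TAC shctrl arrays, where its log2 intensity reached 5.83, while it was not detected on any array of the other 3 groups. The kept Anxa2 probe was also highest in TAC shctrl.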

How the results depend on the processing

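Under the alternatives, Anxa2, Anxa3 and Anxa5 kept their TAC call in shctrl throughout, at 2.03 to 2.52, 1.64 to 2.43 and 1.06 to 1.30. The count of annexins called there, 5, was 3 in the authors' value table and with no filter, and 3 to 5 without 1 array. With only probes detected on all 12 arrays it was 3 of the 5 members then tested. Their median, 0.87, was 0.32 with no background correction, 1.04 with median scaling, 0.47 with an offset of 50, 0.16 in the authors' table and 1.19 over probes detected on all arrays. For TAC in shUhrf1 the count of 3 was 5 with median scaling, 1 with no filter or with only the 2 groups compared, and 0 to 4 without 1 array. The median of 0.76 was 0.45 without background correction, 1.09 with median scaling, 0.54 with an offset of 50, 0.24 in the authors' table and 0.61 to 0.95 without 1 array. Partner calls there, 3, were 14 with median scaling, 0 with no filter or 2 groups, and 0 to 3 without 1 array. Median scaling put the median of all genes at 0.19 for TAC in shctrl, 0.45 for TAC in shUhrf1, 0.28 between hairpins after TAC and 0.26 for the difference between TAC responses, and turned calls with TAC in shctrl from 1001 higher and 653 lower to 1200 and 72, in shUhrf1 from 346 and 139 to 2005 and 13, and between hairpins after TAC from 134 and 119 to 257 and 45. Without 1 array the sham hairpin median ran from 0.0354 to 0.27. After TAC the single hairpin call was lost (0) with no filter, with probes detected on all arrays, with the replicate block and with 2 groups, and was 0 to 1 without 1 array. That median of -0.06 turned to 0.11 with median scaling and 0.0862 with no filter, was -0.35 over probes detected on all arrays, and ran from -0.15 to 0.0564 without 1 array, the sign turning without TAC shUhrf1 array 2. Partner calls there were 1 at a detection p of 0.05 and 0 to 2 without 1 array. The Uhrf1 difference was -0.33 in the authors' table (limma adjusted p = 0.0509), -1.35 with no filter (0.112) or 2 groups (0.0676), and -1.71 to -1.01 without 1 array. The median difference between TAC responses, -0.12, was -0.46 over probes detected on all arrays and -0.29 with the mean of probes. Stab1 turned to 0.22 with that mean. Over all genes, calls per comparison in the order of the report were 1654, 485, 4, 253 and 0, and ranged from 874 to 1852, 113 to 2018, 0 to 24, 9 to 393 and 0 to 102. Same-numbered arrays deviated together only in part (correlation -0.12 to 0.25), which does not settle whether the numbers pair the samples. With the numbers as a block, calls were 986 higher and 617 lower for TAC in shctrl and 111 and 104 between hairpins after TAC. Apart from the filters, which change the genes tested, the cause of these changes was not tested. The slide as a block was not run, since no slide is named. Anxa1, Anxa7 and Anxa13 lie near background, which limits their values.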
